A study of Mus musculus with 8 samples.

Results

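The genes followed here are 10 acute phase genes of mouse liver: the orosomucoids Orm1, Orm2 and Orm3, haptoglobin (Hp), lipocalin 2 (Lcn2), Lrg1, Lbp, Serpina3n, Itih3 and Itih4. They were taken by symbol from the deposited expression table, which holds 48323 symbols. All 10 had an estimate in every library, and all 10 were among the 11316 genes with at least 1 FPKM (fragments scaled to transcript length and library size) in at least 2 libraries, the genes that were tested. Liver RNA of wild-type C57BL/6 mice was sequenced after 30 weeks of exposure, in 8 libraries of 4 groups with 2 libraries each. LL-PM2.5 mice lived in constant light and breathed PM2.5, fine airborne particles. LL-FA mice lived in constant light and breathed filtered air. LD-PM2.5 mice breathed PM2.5 under a light/dark cycle, and LD-FA mice breathed filtered air under a light/dark cycle. The series asks how polluted air disturbs the daily rhythm of the liver, and constant light is its second exposure. The labels do not say whether both libraries of a group are separate animals. The spread that the p-values rest on may therefore be technical. The sources used here do not give the time of day of collection or the age and sex of the mice.

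The acute phase response is the change in what hepatocytes secrete into blood during infection or injury. Interleukin-1 and tumour necrosis factor act on hepatocytes through NF-kB, and IL-6 acts through its receptor, the shared subunit gp130 and the transcription factor STAT3. C/EBP beta and C/EBP delta bind many of the target promoters, and glucocorticoids strengthen the response of several of them. Orosomucoids, also called alpha-1-acid glycoproteins, carry basic drugs and lipids in plasma and dampen inflammation. Haptoglobin captures free hemoglobin, lipocalin 2 withholds iron by binding bacterial siderophores, and LBP hands bacterial lipopolysaccharide to CD14. LRG1 is a secreted leucine-rich glycoprotein that modifies TGF-beta signalling, Serpina3n inhibits serine proteases, and the proteins of Itih3 and Itih4 belong to the inter-alpha-trypsin inhibitor heavy chains, of which ITIH3 is bound to hyaluronan.

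The 3 orosomucoid genes lie side by side on chromosome 4 (GRCm38/mm10), on the plus strand, in the order Orm1 (63344560 to 63348163), Orm3 (63356162 to 63359511) and Orm2 (63362449 to 63365878), a span of 21.3 kb. Itih4 (30886476 to 30902353, plus strand) and Itih3 (30908572 to 30923760, minus strand) lie 6.2 kb apart on chromosome 14. The others do not lie beside another of the 10: Hp on chromosome 8 (109575128 to 109579172, minus strand), Lcn2 on chromosome 2 (32384633 to 32388252, minus strand), Lbp on chromosome 2 (158306493 to 158332852, plus strand), Lrg1 on chromosome 17 (56119678 to 56122001, minus strand) and Serpina3n on chromosome 12 (104406729 to 104414329, plus strand). No other annotated gene overlaps any of the 10. The transcripts of Orm1 and Orm2 were 91.0% identical, those of Orm2 and Orm3 88.5% and those of Orm1 and Orm3 86.5%. Of the 50-base stretches of the Orm1 transcript, 20.4% also occur in another gene, against 22.7% for Orm2, 3.6% for Orm3, 6.9% for Serpina3n and at most 0.2% for each of the other members. The sources used here do not say how fragments that fit several genes were assigned, so the split between Orm1 and Orm2 is uncertain.

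RefSeq (GRCm38.p6) gave promoters for 7 members: Orm2, Orm3, Lcn2, Lrg1, Serpina3n, Itih3 and Itih4. The 250 bases before the RefSeq start were searched on both strands for the letters TTNNGNAA of C/EBP sites, TTCNNNGAA of STAT sites, AGAACA of glucocorticoid receptor sites, and the kappaB motif. Windows are shown for the 4 genes with C/EBP letters, which include the 3 with the largest differences between light regimes. Capitals mark the C/EBP letters on either strand.
Orm2 (chr4:63362199-63362448, plus strand): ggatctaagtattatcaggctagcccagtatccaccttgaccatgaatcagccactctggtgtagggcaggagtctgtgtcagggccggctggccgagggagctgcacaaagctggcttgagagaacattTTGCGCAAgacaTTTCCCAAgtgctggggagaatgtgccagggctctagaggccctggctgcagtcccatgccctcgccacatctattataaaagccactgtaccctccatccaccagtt
Orm3 (chr4:63355908-63356157, plus strand): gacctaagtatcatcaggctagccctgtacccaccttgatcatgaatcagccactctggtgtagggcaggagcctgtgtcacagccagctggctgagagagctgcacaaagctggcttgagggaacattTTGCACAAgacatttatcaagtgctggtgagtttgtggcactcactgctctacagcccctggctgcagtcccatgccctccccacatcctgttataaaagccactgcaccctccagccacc
Lcn2 (chr2:32387740-32387989, minus strand): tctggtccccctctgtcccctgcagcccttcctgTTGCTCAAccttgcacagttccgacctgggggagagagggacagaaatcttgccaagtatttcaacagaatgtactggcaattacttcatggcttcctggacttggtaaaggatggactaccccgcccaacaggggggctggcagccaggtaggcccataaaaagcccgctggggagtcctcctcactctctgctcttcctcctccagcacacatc
Serpina3n (chr12:104406458-104406707, plus strand): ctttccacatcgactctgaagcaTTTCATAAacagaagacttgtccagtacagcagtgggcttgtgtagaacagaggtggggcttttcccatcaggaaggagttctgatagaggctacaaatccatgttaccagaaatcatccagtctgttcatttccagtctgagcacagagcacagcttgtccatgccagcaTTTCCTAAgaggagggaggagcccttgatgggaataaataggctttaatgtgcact
C/EBP letters stood in 4 of the 7 windows, where 36.8% of all 32851 promoters in the table hold them. The Orm2 and Orm3 windows were 89.0% identical over 245 aligned bases and carried C/EBP letters at nearly the same place, 120 and 121 bases before the start. Orm2 carried a second match at 108 bases. STAT letters stood in 1 window, that of Itih4, against 7.0% of all promoters. AGAACA stood in 2 windows, those of Orm2 and Serpina3n, against 16.1%, and the kappaB motif in 0, against 7.3%. A match describes letters and does not show binding.

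In the LD-FA livers the 10 transcripts spanned a wide range of abundance, given here as mean FPKM, which is scaled to length. Hp stood highest at 3362 ± 655 FPKM (SD, n = 2), which ranked 12 among the 11316 tested genes. Orm1 followed at 1641 ± 608 FPKM, then Lrg1 at 715 ± 132 and Itih4 at 682 ± 148, a pair whose libraries overlapped. Itih3 averaged 250.3 ± 37.6 FPKM and Serpina3n 201 ± 49.6, Orm2 71.8 ± 43.5, Lcn2 43.8 ± 18.7 and Lbp 32.7 ± 3.96. The libraries of Itih3 and Serpina3n overlapped. From Serpina3n down to Orm2 the libraries separated, while those of Orm2 overlapped with those of Lcn2, and Lcn2 with Lbp. Orm3 was the rarest at 8.10 ± 0.750 FPKM. Together the 10 genes held 0.67% and 0.736% of the listed fragments in the LL-PM2.5 libraries and 0.712% and 0.711% in the LL-FA libraries. They held 1.284% and 1.042% in the LD-PM2.5 libraries and 1.491% and 1.093% in the LD-FA libraries. Every light/dark library was therefore above every constant light library, with Wilson intervals no wider than 1.486% to 1.495%, which cover counting error only. The denominator counts all listed fragments, with the 1.07% that belong to genes left out for their status. Any fragments not listed for very abundant genes without an estimate are missing from it.

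The libraries held 22214720 to 31819108 listed fragments each. Summed over 10 hepatocyte markers, FPKM lay between 26350 and 33810 in all 8. The sum of 9 markers of pancreas acinar cells reached 3373 FPKM in LD-FA replicate 1, 329.4 in LL-PM2.5 replicate 2 and 120.9 in LD-PM2.5 replicate 1, against 17.82 to 34.71 in the other libraries. The sum of 7 skeletal muscle markers was 523.5 FPKM in LL-FA replicate 1, while LD-FA replicate 1 had 272.9, LD-FA replicate 2 had 31.47 and no other library more than 1.322. The sum of 6 adipocyte markers was 55.76 FPKM in LL-FA replicate 1 and 7.48 to 15.44 in the others. LL-FA replicate 1 and LD-FA replicate 1, the libraries highest in muscle markers, are called the muscle-rich pair, and values without them are given with the counts in filtered air and over both airs.

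Constant light against the light/dark cycle gave the clearest pattern among the 10 genes. In each air 9 of them had an unadjusted p under 0.05 on the lower side, all but Lbp in filtered air and all but Itih3 in PM2.5, where 1.55% and 5.68% of tested genes did. Averaged over both airs, Lcn2 and Orm2 stood farthest apart, Orm3 next, then Lrg1, Serpina3n and Hp, and Itih3 and Lbp least. No member passed an adjusted p of 0.05 in edgeR's quasi-likelihood test, in which 0 of the 11316 genes passed in any comparison. By comparison, 310 to 1240 of those genes had an unadjusted p under 0.05, and DESeq2 called 33 to 151. In bulk liver, fewer cells of a type and less RNA per cell cannot be told apart.

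**Figure D1:**
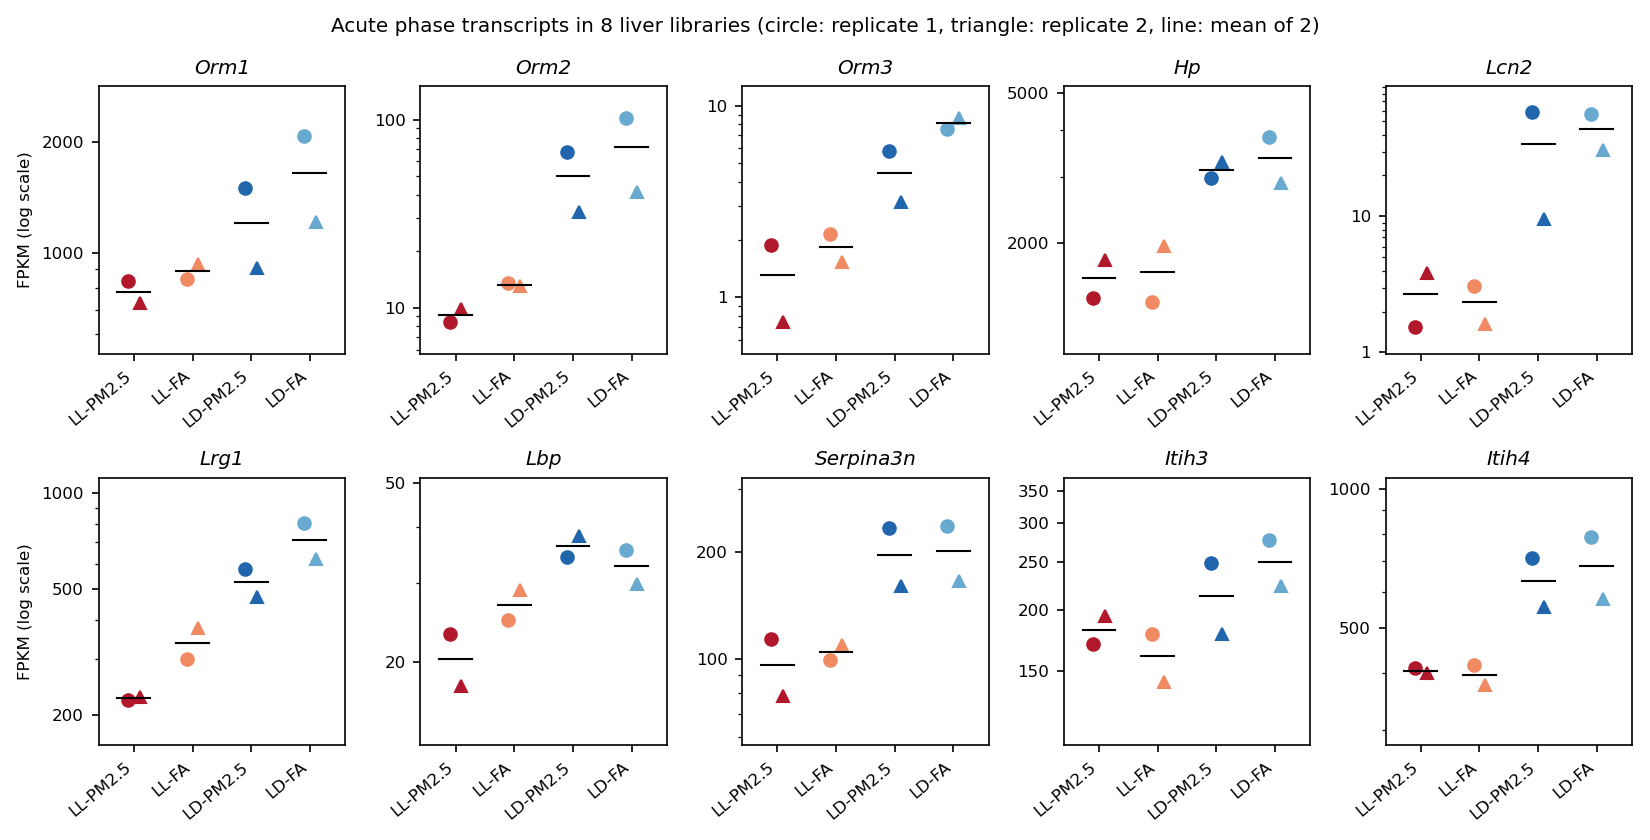
FPKM of each of the 10 genes (log scale) in the 8 liver libraries, with circles for replicate 1, triangles for replicate 2 and a line at the mean of each group of 2. Constant light groups are on the left of each panel, and in 8 panels all 4 of their points lie below all 4 light/dark points, the exceptions being Orm1 and Itih3.

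Orm2 stood at 8.42 and 9.89 FPKM in LL-PM2.5 and 13.5 and 13.0 in LL-FA, against 67.7 and 32.1 FPKM in LD-PM2.5 and 102 and 41.0 in LD-FA. The highest constant light library was thus below the lowest light/dark library. The log2 fold change was -2.43 ± 0.45 (SE) for LL-FA against LD-FA (unadjusted p = 7.87e-04, adjusted p = 0.79 in edgeR's quasi-likelihood test) and -2.44 ± 0.45 for LL-PM2.5 against LD-PM2.5 (unadjusted p = 8.07e-04, adjusted p = 0.366). The first was -1.70 without LD-FA replicate 1 and the second -1.85 without LD-PM2.5 replicate 1. Orm3 read 1.87 and 0.745 FPKM in LL-PM2.5 and 2.14 and 1.52 in LL-FA, against 5.81 and 3.14 in LD-PM2.5 and 7.57 and 8.63 in LD-FA. It too was separate in the 2 regimes, with log2 fold changes of -2.19 ± 0.42 in filtered air and -1.81 ± 0.43 in PM2.5, although its LL-PM2.5 replicate 2 rested on 23 fragments. Without LL-PM2.5 replicate 2 the value in PM2.5 was -1.34. It was -2.54 without LL-PM2.5 replicate 1, which leaves replicate 2 alone. Orm1, the most abundant orosomucoid, read 839 and 728 FPKM in LL-PM2.5 and 845 and 933 in LL-FA, against 1501 and 909.7 in LD-PM2.5 and 2070.4 and 1211 in LD-FA. LL-FA replicate 2 and LD-PM2.5 replicate 2 overlapped in FPKM, and the log2 fold changes were -0.89 ± 0.24 in filtered air and -0.63 ± 0.24 in PM2.5. The ratio of Orm1 to Orm2 FPKM was 99.6 and 73.6 in LL-PM2.5 and 62.6 and 71.7 in LL-FA, against 22.2 and 28.3 in LD-PM2.5 and 20.2 and 29.5 in LD-FA, with the limit that fragments shared by both genes may have been split either way.

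Hp, the haptoglobin transcript, stood at 1429 and 1803 FPKM in LL-PM2.5 and 1394 and 1966 in LL-FA, against 2986 and 3281 FPKM in LD-PM2.5 and 3825 and 2899 in LD-FA. The regimes did not overlap, with log2 fold changes of -0.97 ± 0.23 in filtered air (unadjusted p = 0.00331) and -0.93 ± 0.23 in PM2.5 (unadjusted p = 0.00408). Lcn2 read 1.53 and 3.84 FPKM in LL-PM2.5 and 3.10 and 1.63 in LL-FA, against 58.3 and 9.53 in LD-PM2.5 and 57.0 and 30.6 in LD-FA. Every light/dark library was above every constant light library, but the LD-PM2.5 libraries differed 6.118-fold from each other. Its log2 fold change was -4.17 ± 0.90 in filtered air (unadjusted p = 0.00209) and -3.66 ± 0.88 in PM2.5 (unadjusted p = 0.00375), and the second was -1.82 without LD-PM2.5 replicate 1. Leaving out replicate 2 of LL-PM2.5 or of LD-PM2.5 gave -4.47 and -4.43. By rank among tested genes Lcn2 was at 8163 in LL-PM2.5 and at 1515 in LD-FA, and Orm2 at 4572 in LL-PM2.5 and 1002 in LD-FA.

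Neutrophils also make Lcn2 and Lrg1. The sum of 13 neutrophil markers was 4.807 and 4.483 FPKM in LL-PM2.5 and 6.662 and 4.533 in LL-FA, against 7.817 and 14.94 in LD-PM2.5 and 7.23 and 4.735 in LD-FA. Of the 13, Ngp, Camp, Ltf, Mpo and Ly6g, granule and surface genes, were at or below 0.1 FPKM in every library. S100a8 read 1.12 to 6.01 FPKM and S100a9 1.72 to 6.41, both highest in LD-PM2.5 replicate 2, and Csf3r read 0.236 to 0.442. The part of neutrophil transcripts in the Lcn2 and Lrg1 values was not tested.

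Lrg1 stood at 224 and 229 FPKM in LL-PM2.5 and 301 and 376 in LL-FA, against 576 and 473 in LD-PM2.5 and 808 and 621 in LD-FA. In FPKM all 4 groups were apart in that order, and the log2 fold changes were -1.01 ± 0.24 in filtered air (unadjusted p = 0.00325) and -1.21 ± 0.24 in PM2.5 (unadjusted p = 0.0012). Serpina3n read 114 and 78.4 FPKM in LL-PM2.5 and 98.9 and 109 in LL-FA, against 233 and 159.8 in LD-PM2.5 and 236 and 166 in LD-FA. The regimes did not overlap, and the log2 fold changes were -0.93 ± 0.24 in filtered air and -1.01 ± 0.24 in PM2.5. Lbp read 23.0 and 17.7 FPKM in LL-PM2.5 and 24.8 and 28.9 in LL-FA, against 34.3 and 38.1 in LD-PM2.5 and 35.5 and 29.9 in LD-FA. Here LL-FA reached almost to LD-FA, so that the log2 fold change was -0.26 ± 0.17 in filtered air (unadjusted p = 0.167) and -0.80 ± 0.17 in PM2.5 (unadjusted p = 0.00188).

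Of the inter-alpha-trypsin inhibitor genes, Itih4 stood at 409 and 399 FPKM in LL-PM2.5 and 414 and 375 in LL-FA, against 708 and 555 in LD-PM2.5 and 787 and 577 in LD-FA. The regimes did not overlap, and the log2 fold changes were -0.77 ± 0.20 in filtered air and -0.62 ± 0.20 in PM2.5. Itih3 read 169.9 and 194 FPKM in LL-PM2.5 and 179 and 142 in LL-FA, against 249 and 178 in LD-PM2.5 and 277 and 224 in LD-FA. In PM2.5 its groups overlapped, with a log2 fold change of -0.20 ± 0.20 (unadjusted p = 0.364), which was 0.01 without LD-PM2.5 replicate 1, while it was -0.62 ± 0.20 in filtered air (unadjusted p = 0.017). Itih1, a heavy chain gene of the same cluster that lies 5.4 kb from Itih3, read 149.3 to 170.2 FPKM over the 8 libraries. Averaged over both airs it stood at -0.01 ± 0.10 for constant light. The nearest tested neighbours of the orosomucoid cluster, Ambp at -0.18 ± 0.12, Rgs3 at -0.18 ± 0.18, Atp6v1g1 at 0.14 ± 0.18 and Tmem268 at -0.07 ± 0.14, also lay closer to 0 than the orosomucoids.

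Counted together in filtered air, all 10 genes were lower in both LL-FA libraries than in both LD-FA libraries by CPM (fragments scaled to library size), which held for 15.9% of tested genes. At an unadjusted p under 0.05, 9 of 10 were lower, against 1.55% of tested genes. Their median log2 fold change was -0.95 where that of all tested genes was 0.00. With LD-FA replicate 1 left out, 6 of 10 had an unadjusted p under 0.05, against 0.627% of tested genes on that side, with a median of -0.67. Without the muscle-rich pair, 3 of 10 did, against 1.29%, with a median of -0.66, and all 10 stayed below 0. Leaving out that pair left a single library in LL-FA and in LD-FA, so that replication came from the PM2.5 groups alone. Without that pair Lcn2 stood at -4.25, Orm3 at -2.60, Orm2 at -1.71 and Lrg1 at -0.72. Itih3 stood at -0.69, Itih4 at -0.64, Serpina3n at -0.61 and Hp at -0.57. Orm1 at -0.45 and Lbp at -0.05 lay nearest to 0. The part of the pancreas and muscle transcripts in the difference was not tested. DESeq2 called 8 of 10 genes at an adjusted p of 0.05, all but Lbp and Itih3, and 43 genes in all.

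In PM2.5, 9 of 10 genes were lower in both LL-PM2.5 libraries than in both LD-PM2.5 libraries, against 20.2% of tested genes, and the exception was Itih3. The same 9 had an unadjusted p under 0.05, against 5.68% of tested genes. The median of the 10 was -0.97 and that of all tested genes 0.01. The median of the 10 lay between -1.14 and -0.88 without each library in turn. In some of those fits fewer than 9 genes had such a p. DESeq2 called 7 of 10, all but Orm1, Itih3 and Itih4, and 139 genes in all. LL-PM2.5 and LL-FA each have their own light/dark group, so these 2 comparisons share no library, although they share the estimate of spread.

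Averaging over both airs made the errors smaller. All 10 genes had an unadjusted p under 0.05 on the lower side, against 3.48% of tested genes, and 9 were lower in every one of the 4 constant light libraries than in any of the 4 light/dark libraries by CPM, against 1.79%. The log2 fold changes ran from -3.91 ± 0.63 for Lcn2, -2.44 ± 0.32 for Orm2 and -2.0 ± 0.30 for Orm3 to -0.53 ± 0.12 for Lbp and -0.41 ± 0.14 for Itih3. That of Lcn2 was -2.99 without LD-PM2.5 replicate 1. Between them stood Lrg1 at -1.11 ± 0.17, Serpina3n at -0.97 ± 0.17, Hp at -0.95 ± 0.16, Orm1 at -0.76 ± 0.17 and Itih4 at -0.69 ± 0.14. Without the muscle-rich pair, 9 of 10 had such a p, against 3.84% of tested genes, and the median was -0.78 where it was -0.96 with all libraries. Orm2 had the smallest adjusted p among the 10, 0.15 in edgeR's quasi-likelihood test, which is also the smallest of all genes in this comparison, and its unadjusted p ranked 6.

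**Figure D2:**
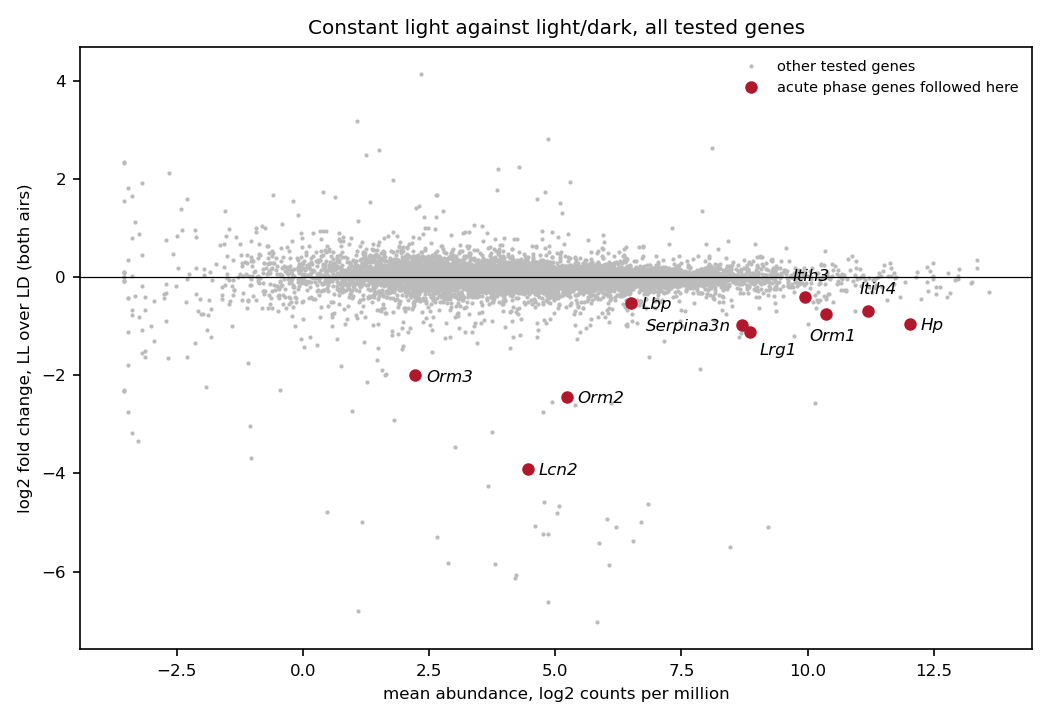
Log2 fold change of constant light over light/dark averaged over both airs, against mean log2 CPM, for the 11316 tested genes (grey) and the 10 acute phase genes (red). All 10 lie below 0, from -3.91 for Lcn2 to -0.41 for Itih3.

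Under the light/dark cycle the 10 genes showed no difference between PM2.5 and filtered air that passed even an unadjusted p of 0.05. In LD-PM2.5 against LD-FA, 0 of 10 had an unadjusted p under 0.05 on either side, where 4.18% of tested genes did on the lower and 6.78% on the higher side. Orm3, with 5.81 and 3.14 FPKM in LD-PM2.5 against 7.57 and 8.63 in LD-FA, was the only one whose groups did not overlap by CPM, at -0.88 ± 0.40, and 24.8% of tested genes had such groups on the lower side. For Hp the log2 fold change was -0.06 with a 95% interval of -0.59 to 0.47, and for Serpina3n -0.04 (-0.60 to 0.52). The interval for Lcn2 was wide, -2.16 to 1.43 around -0.37. Those of Orm1 (-1.0 to 0.13), Orm2 (-1.51 to 0.47) and Lrg1 (-0.95 to 0.15) also hold 0, and so leave room for a decrease as large as the one seen in constant light for Orm1. Without LD-FA replicate 1 the values of Orm2, Hp, Lcn2, Serpina3n and Itih4 turned positive, between 0.12 and 0.23.

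Under constant light, PM2.5 came with lower values of Lrg1 and Lbp. Lrg1 stood at 224 and 229 FPKM in LL-PM2.5 against 301 and 376 in LL-FA, a log2 fold change of -0.60 ± 0.24 (unadjusted p = 0.0367, adjusted p = 0.989 in edgeR's quasi-likelihood test). Lbp stood at 23.0 and 17.7 FPKM in LL-PM2.5 against 24.8 and 28.9 in LL-FA, at -0.42 ± 0.17 (unadjusted p = 0.0425, adjusted p = 0.989), and at -0.24 without LL-PM2.5 replicate 2. These 2 of 10 compare with 2.71% of tested genes at an unadjusted p under 0.05 on the lower side. The count was 0 when either LL-FA library or LL-PM2.5 replicate 2 was left out, and 1 with the replicate number as a block. Groups did not overlap on the lower side for 4 of 10, Lrg1, Lbp, Orm1 and Orm2, against 14.9%. The other 8 genes lay between -0.52 for Orm2 and 0.21 for Itih3, with 95% intervals that hold 0, such as -0.55 to 0.50 for Hp.

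The difference between both PM2.5 effects, which is also the difference between both light effects, was tested as an interaction. None of the 10 genes had an unadjusted p under 0.05, against 4.88% of tested genes. Lbp came nearest at -0.54 ± 0.24 (unadjusted p = 0.0566, adjusted p = 0.843 in edgeR's quasi-likelihood test). For Orm2 the estimate was -0.00 with a 95% interval of -1.22 to 1.22, for Hp 0.04 (-0.71 to 0.78) and for Lcn2 0.51 (-2.22 to 3.24). The Orm2 interval may be too narrow, because its SE is unstable for so small an estimate. That SE was 0.52, where its PM2.5 effects under light/dark and under constant light had SEs of 0.42 and 0.44. The intervals of Orm2, Orm3, Hp, Lcn2, Lrg1 and Serpina3n stop short of the size of their light effects in filtered air, such as -2.43 for Orm2 and -0.97 for Hp. Those of Orm1, Itih3, Itih4 and Lbp reach beyond the size of theirs. Differences within the intervals could not be resolved with 2 libraries a group.

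**Figure D3:**
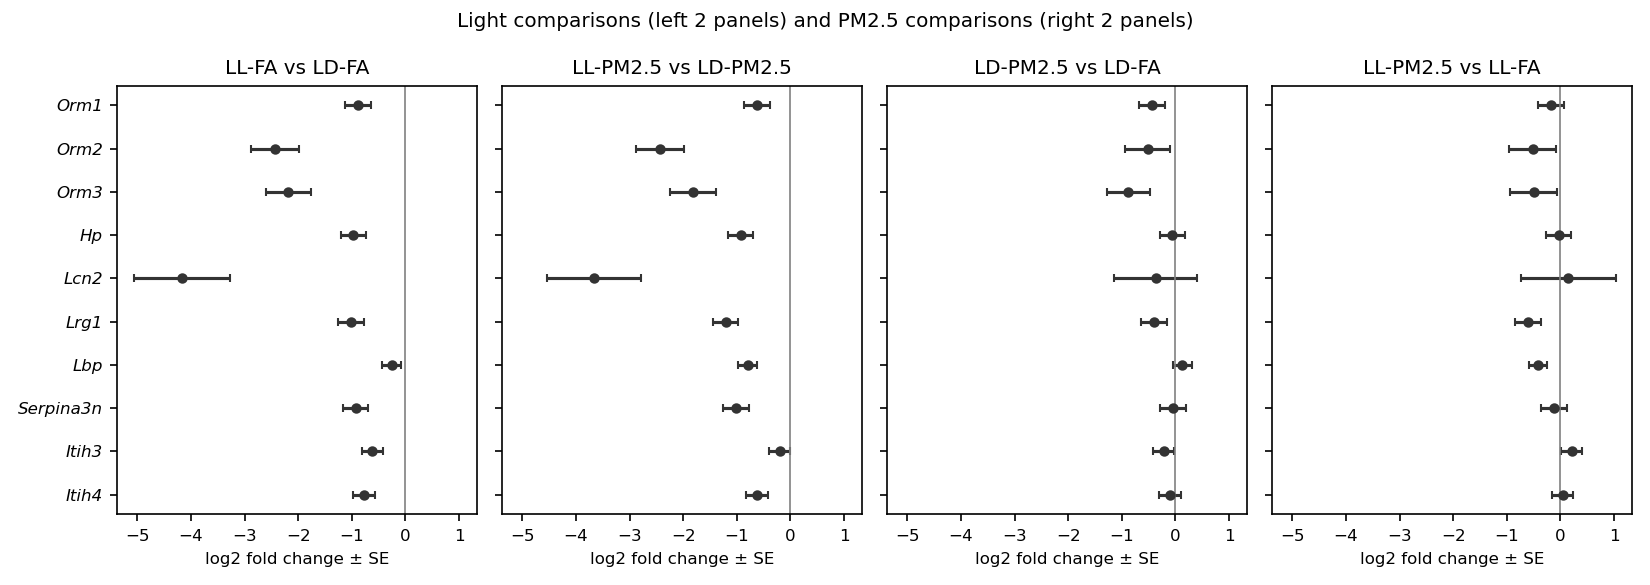
Log2 fold change ± SE of each gene for constant light in filtered air and in PM2.5 (left panels) and for PM2.5 under light/dark and under constant light (right panels), from 2 libraries a group. Points lie below 0 in the light panels, from -4.17 to -0.20, and within -0.88 and 0.21 in the PM2.5 panels.

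With both exposures together, LL-PM2.5 against LD-FA, all 10 genes were lower in both libraries, against 18.6% of tested genes, and 9 had an unadjusted p under 0.05, against 3.7%. Lrg1 had the smallest p of the 10, 2.13e-04, at -1.61 ± 0.24 (adjusted p = 0.214 in edgeR's quasi-likelihood test). Orm2 stood at -2.96 ± 0.46, Orm3 at -2.69 ± 0.43 and Lcn2 at -4.02 ± 0.89. In fits without libraries Orm2 ranged from -3.44 without LD-FA replicate 2 to -2.22 without LD-FA replicate 1. Orm3 ranged from -3.42 without LL-PM2.5 replicate 1 to -2.22 without LL-PM2.5 replicate 2. Lcn2 ranged from -4.82 without LL-PM2.5 replicate 2 to -3.49 without LL-PM2.5 replicate 1. The other genes lay between -1.07 ± 0.24 for Orm1 and -0.41 ± 0.20 for Itih3. LD-FA is also one side of the filtered air comparison, so the 2 sets of values are not independent.

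Other genes of the response were read from lists. Of 24 tested positive acute phase genes outside the 10, 12 had an unadjusted p under 0.05 on the lower side for constant light averaged over both airs and 0 on the higher side, against 3.48% and 2.18% of tested genes. Their median was -0.40. Without any 1 library, or without the muscle-rich pair, 5 to 11 of the 24 did. The lowest count, 5, came without that pair, and 6 had such a p without either of its libraries alone. Saa1 and Saa2, serum amyloids A that circulate with lipoproteins, stood farthest from 0 in this list. Saa1 read 30.87 and 68.51 FPKM in LL-PM2.5 and 39.87 and 43.68 in LL-FA, against 2134 and 303.4 in LD-PM2.5 and 2851 and 1281 in LD-FA. Its log2 fold change was -5.10 ± 0.67, and that of Saa2 was -5.50 ± 0.83. Like Lcn2, Saa1 was lowest among the light/dark libraries in LD-PM2.5 replicate 2. C4b, a complement component, stood at -0.62 ± 0.12 and Fgl1 at -1.22 ± 0.35. Of 12 negative acute phase genes, which the liver makes less of during inflammation, 0 had such a p on either side, with a median of 0.03.

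The IL-6 type signalling genes stood higher in LD-PM2.5 than in LD-FA, where the 10 acute phase genes had a median of -0.29. The median of the 10 was 0.13 without LD-FA replicate 1 or without the muscle-rich pair. It lay between -0.56 and -0.04 without any other library. In LD-PM2.5 against LD-FA, 8 of 15 tested genes of the IL-6 type list had an unadjusted p under 0.05 on the higher side and 0 on the lower. This compares with 6.78% and 4.18% of tested genes, and the list had a median of 0.62. The count was 5 when LD-PM2.5 replicate 2, LD-FA replicate 2 or the muscle-rich pair was left out, and 7 to 9 when any other library was. Pim1 and Pim3, kinases induced by STAT3, stood at 1.09 ± 0.16 and 1.35 ± 0.20. Socs3, the feedback inhibitor of the receptor, read 10.4 and 23.87 FPKM in LD-PM2.5 against 2.559 and 1.48 in LD-FA, at 3.12 ± 0.81, and Il6st, which encodes gp130, stood at 0.71 ± 0.18. In LL-FA against LD-FA the list was mixed, with 1 lower and 2 higher at that p and a median of 0.07. Stat3 itself stood at -0.37 ± 0.12 and Pim3 at 0.63 ± 0.20. In LL-PM2.5 against LD-PM2.5, 9 of 15 were lower at that p and 0 higher, against 5.68% and 3.54% of tested genes. Their median was -0.63, with Socs3 at -3.66 ± 0.83 and Stat3 at -0.52 ± 0.12, and the count was 5 without LD-PM2.5 replicate 2. In the interaction, 5 of 15 were lower and 0 higher, against 2.91% and 1.97% of tested genes, with a median of -0.81. Pim1 stood at -1.20 ± 0.22 there, Pim3 at -1.26 ± 0.28 and Socs3 at -4.44 ± 1.12. The interaction count was 3 without the muscle-rich pair and 8 without LD-PM2.5 replicate 1. None of these genes passed an adjusted p of 0.05 in edgeR's quasi-likelihood test.

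Of the IL-1, Toll-like receptor and NF-kB genes, some had lower values in constant light in each air. In LL-FA against LD-FA, 9 of 20 tested genes had an unadjusted p under 0.05 on the lower side and 0 on the higher, against 1.55% and 1.19% of tested genes, with a median of -0.32, and 14 of 20 lay below 0. Leaving out replicate 2 of either group made the count 2, and leaving out LL-FA replicate 1, alone or with LD-FA replicate 1, made it 5. Il1b, the cytokine, read 0.8679 and 0.6341 FPKM in LL-FA against 4.358 and 2.359 in LD-FA, at -2.15 ± 0.32, and the chemokine Ccl2 stood at -2.23 ± 0.61. In LL-PM2.5 against LD-PM2.5, 11 of 20 were lower and 0 higher, against 5.68% and 3.54% of tested genes, with a median of -0.52. Nfkbiz, which encodes a nuclear IkappaB protein known to be required for Lcn2 induction in macrophages, read 1.399 and 0.9802 FPKM in LL-PM2.5 against 3.8 and 4.022 in LD-PM2.5, at -1.70 ± 0.20. Its unadjusted p, 4.76e-05, was the smallest of all genes in that comparison. In LD-PM2.5 against LD-FA, 8 of 20 were higher and 0 lower, against 6.78% and 4.18% of tested genes, with a median of 0.33. Cxcl1 stood at 3.04 ± 0.63, Nfkbiz at 1.01 ± 0.20 and Relb at 1.44 ± 0.33 there. The LD-PM2.5 libraries enter both of the last comparisons, so their values are not independent. How far the counts in both rest on single libraries is not given here.

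**Figure D4:**
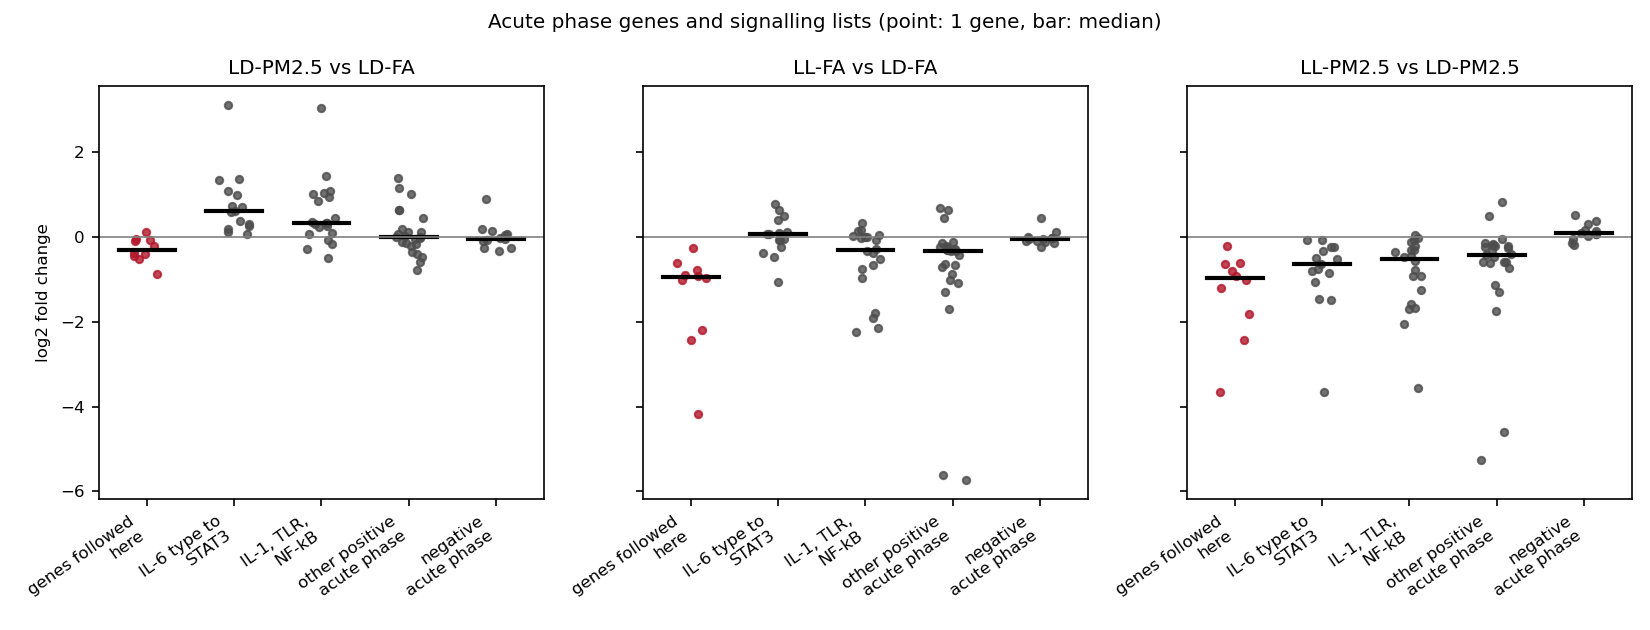
Log2 fold changes of the 10 acute phase genes (red) and of the tested genes of 4 lists (grey) in 3 comparisons, 1 point a gene with a bar at the median. In LD-PM2.5 against LD-FA the IL-6 type list has a median of 0.62 and the 10 genes -0.29, which was 0.13 without LD-FA replicate 1. In LL-PM2.5 against LD-PM2.5 both medians are below 0.

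The glucocorticoid list had 10 tested genes. In LD-PM2.5 against LD-FA 4 were higher and 1 lower at an unadjusted p under 0.05, against 6.78% and 4.18% of tested genes, with Fkbp5, a receptor chaperone, at 1.88 ± 0.38 and the phosphatase Dusp1 at -1.45 ± 0.37. In LL-FA against LD-FA 0 had such a p on either side, and in LL-PM2.5 against LD-PM2.5 2 were lower, against 5.68% of tested genes, with Fkbp5 at -1.42 ± 0.38. Of 13 tested receptors and partners of the 10 proteins, 0 had such a p in LL-FA against LD-FA and 3 were lower in LL-PM2.5 against LD-PM2.5, against 5.68% of tested genes. They were Cd163, the macrophage receptor for haptoglobin and hemoglobin complexes, at -0.67 ± 0.20, Tgfbr2 at -0.42 ± 0.13 and Itih5 at -0.49 ± 0.19. Leaving out LL-PM2.5 replicate 2 made this count 0, and leaving out LD-PM2.5 replicate 2 made it 1. The sum of 11 macrophage markers was 258.6 and 319.8 FPKM in LL-PM2.5, against 318.1 and 280.9 in LD-PM2.5. Only 5 of 18 SERPINA3 and SERPINA1 relatives were tested, and 11 of 18 were listed with an estimate. Serpina3f at -1.05 ± 0.29 and Serpina3g at -0.98 ± 0.34 had such a p on the lower side in LL-PM2.5 against LD-PM2.5, and in LL-FA against LD-FA 0 of the 5 did. Under light/dark, 3 of the 5 had such a p on the higher side in LD-PM2.5 against LD-FA and 0 on the lower, Serpina3f at 0.91 ± 0.29, Serpina3g at 1.01 ± 0.34 and Serpina6 at 0.89 ± 0.37. That count was 0 without LD-FA replicate 1.

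Profiles over the 8 libraries were compared by the root mean square difference of log2(FPKM + 1) after centring each gene, over 6435 genes with a mean of at least 5 FPKM. For Hp the nearest was Dnajb1, an inducible HSP40 chaperone, at 0.11, nearer than any of the 10 (Itih4, 0.26). Dnajb1 read 10.99 and 12.17 FPKM in LL-PM2.5 and 9.916 and 12.29 in LL-FA, against 19.95 and 26.7 in LD-PM2.5 and 26.21 and 22.14 in LD-FA. Pnrc1 and Avpr1a, both at 0.26, C4b at 0.28 and Dynll1 at 0.29 came next. For Orm2 the nearest outside the 10 was Fgl1, a fibrinogen-like protein secreted by hepatocytes, at 0.61, followed by Prg4, Saa3, Moxd1 and Dnajb1 at 0.72 to 0.80, and Orm3 lay at 0.60. For Lcn2 the nearest were Saa1 at 0.81 and Saa2 at 0.97, then Hspa1b, Fgl1 and Moxd1 at 1.07 to 1.18, and Orm2 lay at 0.72. These distances grow with the size of a gene's own variation, which was 0.53 for Hp, 1.21 for Orm2 and 1.81 for Lcn2.

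The 2 libraries of a light/dark group also differed from each other. LD-FA replicate 1 was the highest light/dark library for 7 of the 10 genes and LD-PM2.5 replicate 2 the lowest for 8. Between the replicates Orm2 differed 2.106-fold in LD-PM2.5 and 2.498-fold in LD-FA, against 1.175-fold in LL-PM2.5 and 1.039-fold in LL-FA. Orm1 differed 1.65-fold and 1.71-fold in the light/dark groups, against 1.152-fold and 1.104-fold in constant light. Itih4 followed the same order. The other 7 genes did not: for Hp the replicates differed 1.262-fold in LL-PM2.5 and 1.41-fold in LL-FA, against 1.099-fold in LD-PM2.5 and 1.319-fold in LD-FA. For Orm3 they differed 2.506-fold in LL-PM2.5 and 1.411-fold in LL-FA, against 1.855-fold in LD-PM2.5 and 1.14-fold in LD-FA.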

How the data were processed

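Liver RNA-seq libraries were read from 1 deposited table with a line per gene and library. Per the submitters' processing notes, the authors used STAR, Cufflinks and Cuffdiff with mm10, with no version, option or annotation named in the sources used here. Per the file headers the authors deposited raw fragments, an estimated count per gene from Cuffdiff that was whole within 0.01 for 97.4% of nonzero values, and FPKM, which the authors scaled by length and library. The 2 other columns of per-sample values were not used. Of 48432 genes listed, 48051 had a symbol, entries of 1 symbol were added, and 47 with a status other than OK were left out (1.07% of fragments).

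Fragments were rounded and tested with edgeR 4.0.16 (R 4.3.3; TMM, quasi-likelihood, Benjamini-Hochberg over all 11316 tested genes, two-sided, threshold 0.05) in 1 fit of the 4 group means over 8 libraries, with 4 residual degrees of freedom, 3.46 prior degrees of freedom and a biological coefficient of variation of 21.4%. A gene was tested at 1 FPKM or more in at least 2 libraries. A prior count of 2 was used for log2 CPM, SE was taken from the F statistic, as the size of the fold change (log2) over its root, and 95% intervals come from that SE. Fragment depth, 22214720 to 31819108 a library, limits precision for Orm3 and, in constant light, Lcn2. DESeq2 1.42.0 and limma 3.58.1 on log2(FPKM + 1) or log2(FPKM + 0.1), other filters, the replicate block and fits without each library were alternatives. The robust variance prior, the average over both airs and list counts without libraries were added after seeing the data.

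Positions are from GENCODE vM21 on GRCm38, promoters from RefSeq on GRCm38.p6. Transcripts and promoters were aligned with Biopython 1.88 (match 2, mismatch -1, gap open -5, gap extension -0.5). All 10 members were named. From each list up to 4 genes of smallest unadjusted p in a comparison were named, plus Saa1 and Saa2, and for Orm2, Lcn2 and Hp the 5 nearest profiles. Neighbouring genes were named by position. The members and lists were chosen with earlier results of these data known. Chromatin accessibility data were not analysed here.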

Additional observations from a re-analysis of the deposited data

How the results depend on the processing

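In edgeR's quasi-likelihood test no gene passed an adjusted p of 0.05 in any comparison, and this count depended on the tool and on the filter. DESeq2 called 8 of the 10 acute phase genes in LL-FA against LD-FA, 7 in LL-PM2.5 against LD-PM2.5, 8 in LL-PM2.5 against LD-FA and 9 for constant light averaged over both airs. With no filter on low values, where 23005 genes were tested, edgeR called 8, 7, 9 and 9 in the same order. All genes called by DESeq2 were 151 for LD-PM2.5 against LD-FA, 43 for LL-FA against LD-FA, 58 for LL-PM2.5 against LL-FA, 139 for LL-PM2.5 against LD-PM2.5, 95 for LL-PM2.5 against LD-FA, 33 for the interaction and 92 for the average over both airs. With no filter they were 594, 193, 449, 324, 471, 222 and 279 in that order. The cause was not tested. With a minimum of 5 FPKM, 2 genes were called in LL-PM2.5 against LD-FA. With limma on log2(FPKM + 1) 1 gene was called in each comparison of LL-PM2.5 and in the average, and 2 in the interaction. With a robust variance prior 1 was called in LL-PM2.5 against LL-FA and 1 in LL-PM2.5 against LD-FA.

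Without each library in turn, where the lone library of a group is assumed to vary like the others, genes called ranged between 0 and 36 for LD-PM2.5 against LD-FA, 0 and 10 for LL-PM2.5 against LL-FA, 0 and 4 for LL-PM2.5 against LD-PM2.5, 0 and 7 for LL-PM2.5 against LD-FA, and 0 and 1 for the average. With both the muscle-rich libraries left out, 1 gene was called in LD-PM2.5 against LD-FA. No member was called in these fits. The log2 fold changes of all 10 members stayed below 0 under every alternative in LL-FA against LD-FA, in LL-PM2.5 against LD-FA and in the average. In LL-PM2.5 against LD-PM2.5 the exception was Itih3, which ranged from -0.38 to 0.01.

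The sign of some PM2.5 effects turned with the libraries used, while that of others held in every fit without libraries. In LD-PM2.5 against LD-FA, Orm1, Orm3, Lrg1 and Itih3 stayed negative and Lbp positive (0.01 to 0.25). In LL-PM2.5 against LL-FA, Orm1, Orm2, Orm3, Lrg1 and Lbp stayed negative and Itih3 positive. For the other genes the sign turned. In LD-PM2.5 against LD-FA the fits without libraries gave -1.10 to 0.21 for Orm2, -0.31 to 0.23 for Hp, -2.19 to 0.42 for Lcn2, -0.31 to 0.21 for Serpina3n and -0.30 to 0.13 for Itih4. In LL-PM2.5 against LL-FA they gave -0.16 to 0.10 for Hp, -0.67 to 0.72 for Lcn2, -0.05 to 0.14 for Itih4 and -0.37 to 0.09 for Serpina3n. In the interaction they gave -0.18 to 0.52 for Orm1, -0.74 to 0.58 for Orm2, -0.35 to 0.84 for Orm3, -0.36 to 0.28 for Hp, -0.31 to 2.33 for Lcn2, -0.52 to 0.09 for Lrg1, -0.40 to 0.19 for Serpina3n and -0.08 to 0.34 for Itih4. The interaction of Orm2 was -0.00 as reported, 0.00 with no filter and 0.01 with the replicate block.

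Deviations of libraries with the same replicate number correlated between -0.365 and 0.325 over the 6 pairs of groups, above 0.1 in 4 of them and negative in 1. The FPKM given to a fragment went with the number: its log2 ratio to LD-FA replicate 1 had an SD over genes of 0.065 to 0.106 in the other libraries numbered 1 and of 0.133 to 0.155 in those numbered 2. What the numbers share is not given in the labels. The replicate block called 0 members and 0 genes in every comparison, with medians of -0.93 for LL-FA against LD-FA, -0.97 for LL-PM2.5 against LD-PM2.5 and -0.95 for the average. Fits of only the groups compared were not run for the interaction or the average. With 2 libraries a group, effects of PM2.5 on these genes within the printed intervals could not be resolved.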
